A study of Mus musculus with 14 samples.

Results

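The core of Toll-like receptor and NF-kappaB signalling was followed through the hearts of mice on a high-fat diet in which CTRP9 was either overexpressed or deleted. It was taken as 10 genes chosen by symbol, namely the receptors Tlr2 and Tlr4, the adaptor Myd88, the kinases Irak4 and Irak1, the ubiquitin ligase Traf6, the kinase subunit Ikbkb, the inhibitor Nfkbia and the subunits Nfkb1 and Rela. Where several transcripts of a gene were tabulated, the one with the highest mean was used. All 10 were among the 13219 genes of the table on CTRP9 overexpression. Only 2 of the 10, Tlr4 and Rela, were among the 1230 genes of the table on CTRP9 deletion.

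The study asked how CTRP9, a secreted glycoprotein encoded by C1qtnf9, acts on the heart during early diabetic cardiomyopathy. All mice were male C57BL/6J animals, 7 to 9 weeks old at the start, that received a diet with 60% of its energy as fat for 12 weeks and were fasted for 6 h before the heart was taken. In the overexpression experiment, wild-type mice were injected with 1e12 vector genomes of an adeno-associated virus (AAV9) that carried C1qtnf9 (AAV-CTRP9, n = 4 hearts) or renilla luciferase (AAV-Luc, n = 3 hearts). Expression from both vectors was driven in cardiomyocytes by the promoter of troponin T. In the deletion experiment, homozygous CTRP9 knock-out hearts (KO, n = 4) were set against wild-type hearts (WT, n = 3), and neither group carried a vector. Whole hearts were sequenced, so a lower value may come from fewer cells of a type or from less RNA per cell, which cannot be told apart.

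Toll-like receptors sense microbial products and molecules released by damaged cells. TLR2 and TLR4 sit at the cell surface and bind the adaptor MyD88, on which the kinases IRAK4 and IRAK1 assemble and pass the signal to TRAF6. The IκB kinase, of which IKKβ (Ikbkb) is the main catalytic subunit in this route, then marks the inhibitor IκBα (Nfkbia) for degradation, and the freed dimer of p50 (Nfkb1) and p65 (Rela) enters the nucleus and activates inflammatory genes. Most of these steps are changes of proteins that a transcript level does not show. In the heart the pathway is found in resident macrophages, endothelial cells, fibroblasts and cardiomyocytes.

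Of the core genes, 7 of 10 had a promoter sequence, from 250 bases before to 50 bases after the transcript start, in the RefSeq table for GRCm38.p6. The consensus site of NF-kappaB, the kB site, was searched in them on both strands, overlapping matches included. It was found in the promoters of Tlr2 and Nfkbia and was not matched in those of Irak1, Irak4, Myd88, Rela and Traf6. Of 32851 promoters of this length, 4.51% held a match. The 2 promoters with a match are shown because their genes stood at opposite ends of the results, Tlr2 with the largest difference of the core genes after AAV-CTRP9 and Nfkbia with one of the smallest. Capitals mark the kB matches.
Tlr2, chr3:83841559-83841858, minus strand: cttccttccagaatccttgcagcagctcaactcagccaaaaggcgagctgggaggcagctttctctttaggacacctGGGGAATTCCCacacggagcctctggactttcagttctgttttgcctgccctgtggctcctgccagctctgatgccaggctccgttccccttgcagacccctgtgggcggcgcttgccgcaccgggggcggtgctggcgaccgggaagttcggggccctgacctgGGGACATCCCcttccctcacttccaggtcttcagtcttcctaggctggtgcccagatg
Nfkbia, chr12:55492598-55492897, minus strand: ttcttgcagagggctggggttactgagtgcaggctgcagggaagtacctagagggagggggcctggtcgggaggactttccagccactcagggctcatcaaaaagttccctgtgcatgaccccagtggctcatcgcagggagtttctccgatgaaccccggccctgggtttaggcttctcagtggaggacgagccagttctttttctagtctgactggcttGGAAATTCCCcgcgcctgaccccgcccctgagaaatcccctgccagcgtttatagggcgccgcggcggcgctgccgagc
In Tlr2 the upstream stretch held 2 overlapping matches, which began 173 and 172 bases before the transcript start, the latter on both strands, and another match began 8 bases before it. These positions refer to the RefSeq start, which lies 159 bases inside the tabulated Ensembl transcript of Tlr2. In Nfkbia, where both starts are the same, a single match on the opposite strand began 29 bases before it.

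The labels were checked against C1qtnf9. In the AAV hearts its level was 16.1 to 26.3 CPM (read counts scaled to library size) with AAV-Luc and 44.3 to 108.7 CPM with AAV-CTRP9. Its log2 fold change was 1.73 (SE 0.26), with an adjusted p of 0.11 by limma. The overexpressed gene itself thus did not pass the adjusted test, so missing it does not show that a gene was unchanged. The KO libraries held 0 to 2 reads of C1qtnf9 against 481 to 498 in WT. The library labels number the hearts but do not say that each came from a separate animal, so p-values cover the spread between these samples only. The AAV libraries held 23626917 to 30262264 scaled reads. One of them, AAV-Luc heart Luc_614, stood apart, with levels that followed the GC content of the transcripts (rank correlation across genes 0.52, against -0.27 to -0.11 in the other hearts). Values without heart Luc_614 are therefore given for the core genes and for part of the other genes. The WT and KO libraries held 14978278 to 18959587 reads, and although the mice were male, reads of the female transcript Xist were present at 851 in library WT1 and at 0 to 147 in the other 6. Cardiomyocyte markers were abundant in all AAV hearts (summed level of 7 genes 14556 to 17320 CPM), which fits the labelled tissue.

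Levels were compared between core genes as CPM per kilobase of transcript, as means over the 7 AAV hearts. Irak1 was the highest with 14.1 (13.1 to 16.4 over hearts), followed by Rela with 10.2 (8.75 to 11.2) and Nfkbia with 8.37 (7.77 to 9.23). Nfkb1 with 4.88, Tlr4 with 4.58, Ikbkb with 3.71 and Myd88 with 3.25 followed. Irak4 had 2.39, Traf6 1.52 and Tlr2 0.51 CPM per kilobase (0.30 to 0.69). The ranges over hearts overlapped between the neighbours Rela and Nfkbia, Nfkb1 and Tlr4, Tlr4 and Ikbkb, and Ikbkb and Myd88, and did not overlap between the other neighbours in this order. By the transcripts used, the receptors were thus at different levels, with Tlr2 below every other core gene in all 7 hearts. The Tlr4 level is that of a transcript of 1866 bases. A second Tlr4 transcript, of 4077 bases, had only 3.41 CPM with AAV-Luc and 3.18 CPM with AAV-CTRP9 on average. In heart Luc_614 the longer transcript had 2.45 CPM, which per kilobase is below the 0.69 of Tlr2 there. The place of Tlr4 in this order, its distance from Tlr2 and whether Tlr2 is below it in every heart therefore depend on the transcript used.

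**Figure D1:**
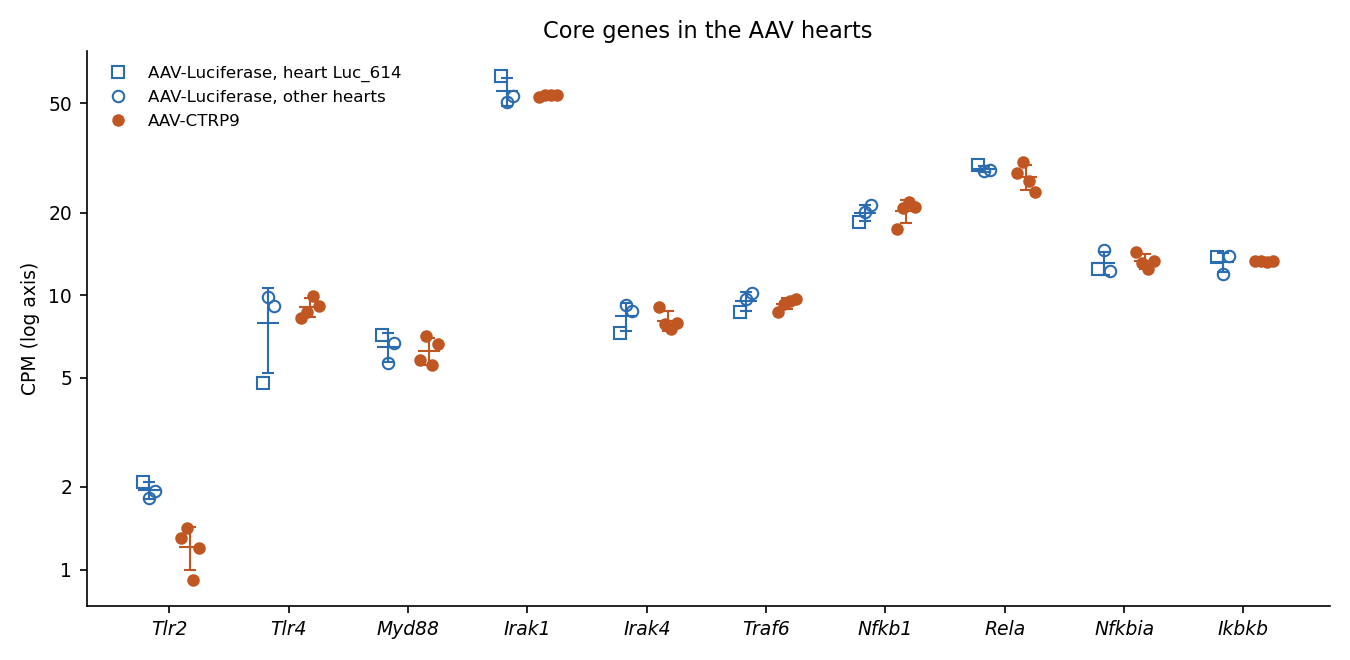
Level of each core gene in every AAV heart, in CPM on a log axis, with blue open symbols for the 3 AAV-Luc hearts (the square is heart Luc_614) and orange points for the 4 AAV-CTRP9 hearts. Horizontal marks and bars give the mean and SD of each group. The groups are separate for Tlr2, and the Tlr4 level of heart Luc_614 lies below those of the other 6 hearts.

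Tlr2, which recognises bacterial lipoproteins together with other Toll-like receptors and is abundant in myeloid cells, was lower in the AAV-CTRP9 hearts. The gene lies at chr3:83836272-83841767 (GRCm38, minus strand). Its level was 2.08, 1.82 and 1.93 CPM in the AAV-Luc hearts Luc_614, Luc_615 and Luc_624, and 1.31, 1.42, 0.91 and 1.20 CPM in the AAV-CTRP9 hearts CTRP9_609, CTRP9_610, CTRP9_611 and CTRP9_620. Every AAV-CTRP9 heart was below every AAV-Luc heart. These levels rested on 50 to 62 reads in the AAV-Luc and 25 to 39 reads in the AAV-CTRP9 libraries. The means were 1.95 ± 0.13 CPM (SD, n = 3) and 1.21 ± 0.22 CPM (SD, n = 4), a log2 fold change of -0.70 (SE 0.22, 95% interval -1.18 to -0.23). AAV-CTRP9 hearts thus had 61.4% of the AAV-Luc level (95% interval 44.2% to 85.4%). The exact permutation test gave the smallest 2-sided p that 35 splits allow (p = 0.0286), and limma gave an unadjusted p of 0.0077 and an adjusted p of 0.43 over all genes. Tlr2 therefore did not pass the threshold. Without heart Luc_614 the log2 fold change was -0.65 with an adjusted p of 0.31 by limma.

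Markers of monocytes and macrophages were lower in the same hearts as Tlr2. Of 12 such genes, all 12 had negative fold changes (5688 of 13219 over all genes), and 7 were lower without overlap between groups (beside 4.54% of all genes). Lyz2, which encodes the lysozyme of myeloid cells, passed the limma test (44.996 ± 0.91 CPM in AAV-Luc and 28.4 ± 1.33 CPM in AAV-CTRP9, SD, adjusted p = 0.035). At an unadjusted p under 0.05 by limma, 7 of the 12 were lower (4.36% of all genes), and 10 without heart Luc_614. Without this heart 5 of the 12 passed the adjusted limma test, beside 150 of all 13219 genes. The summed level of the 12 genes was 370 to 413 CPM in the AAV-Luc and 306 to 343 CPM in the AAV-CTRP9 hearts. Cx3cr1 alone gave 199 and 194 CPM of that sum, and without it (a choice made after seeing the values) the other 11 genes summed to 193.0 to 194.2 CPM and 133.0 to 138.4 CPM. The WT and KO libraries held only 5 to 67 reads of Cx3cr1, and why its level differs so much between the tables was not tested. Pan-leukocyte markers (5 of 5 measured) summed to 27.1 to 30.9 and 17.4 to 25.6 CPM, mostly through Laptm5 (17.5 and 11.8 CPM on average). Ptprc, which encodes CD45, and Coro1a had log2 fold changes of 0.25 and -0.01, with overlapping groups for both. The lowest Ptprc level, 0.90 CPM, was that of heart Luc_614. Without this heart the log2 fold changes were -0.40 for Ptprc and 0.11 for Coro1a, so the direction of Ptprc was not stable. Fibroblast markers (5 of 5) summed to 329 to 379 and 288 to 316 CPM, with Col1a1 and Col1a2 at -0.71 and -0.53 but Dcn and Pdgfra at -0.03 and 0.13. Erythroid markers (3 of 3) summed to 108 to 562 and 87.3 to 137 CPM. The log2 fold changes were -0.86 for Hba-a1, -1.27 for Hbb-bs and -1.09 for Alas2, with overlapping groups. All 3 were lower at an unadjusted p under 0.05 by limma (4.36% of all genes). Without heart Luc_614 they were at -1.39, -1.85 and -1.51, with limma adjusted p-values of 0.004 to 0.015. Only Csf3r of 4 neutrophil markers was in the table, and none of the 5 T cell, 4 B cell or 3 adipocyte markers was. The part of these cell types in the level of Tlr2 was not tested.

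Tlr4, the receptor for bacterial lipopolysaccharide at chr4:66827584-66930284 (plus strand), gave no stable direction. Its level was 4.79, 9.85 and 9.11 CPM in the AAV-Luc hearts Luc_614, Luc_615 and Luc_624, and 8.29, 8.71, 9.96 and 9.16 CPM in the AAV-CTRP9 hearts CTRP9_609, CTRP9_610, CTRP9_611 and CTRP9_620. Heart Luc_614 was below the other 6 hearts, which spanned 8.29 to 9.96 CPM, and the groups overlapped. The log2 fold change was 0.25 (SE 0.21, 95% interval -0.22 to 0.73, limma adjusted p = 0.76), and it was -0.07 without heart Luc_614. Tlr4 had the lowest GC content of the core genes, 41.2%, and its level in heart Luc_614 was lower than the mean of the other AAV-Luc hearts by 0.98 on the log2 scale. A second, longer Tlr4 transcript had fewer reads and a difference of -0.08 on the log2 scale, again with its lowest level, 2.45 CPM, in heart Luc_614. The within-group SD of Tlr4 on the log2 scale, 0.37, exceeded that of 90.0% of all genes.

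The genes between receptor and kinase complex had similar levels in both groups. Myd88, the adaptor shared by most Toll-like receptors (chr9:119335934-119341411, minus strand), was at 7.14, 5.64 and 6.72 CPM with AAV-Luc and at 5.79, 7.11, 5.58 and 6.65 CPM with AAV-CTRP9. Irak4, the first kinase recruited by MyD88 (chr15:94543643-94581815, plus strand), was at 7.31, 9.17 and 8.73 CPM and at 9.05, 7.82, 7.54 and 7.88 CPM in the same order. The groups overlapped for both genes, with log2 fold changes of -0.05 (SE 0.13) for Myd88 and -0.05 (SE 0.12) for Irak4. Irak1, the kinase that IRAK4 activates (chrX:74013914-74023918, minus strand), was at 62.9, 50.4 and 53.1 CPM with AAV-Luc and at 52.6, 53.6, 53.5 and 53.8 CPM with AAV-CTRP9. Its AAV-CTRP9 hearts lay close together and inside the AAV-Luc range. Traf6, the ubiquitin ligase that links the receptor complex to the IκB kinase (chr2:101678429-101701669, plus strand), was at 8.66, 9.71 and 10.2 CPM and at 8.71, 9.31, 9.54 and 9.69 CPM. The log2 fold changes were -0.05 (SE 0.09) for Irak1 and -0.03 (SE 0.10) for Traf6, and limma adjusted p-values of these 4 genes were 0.89 to 0.96. The widest 95% interval among them, that of Myd88, ran from -0.34 to 0.24, so a change of the size seen for Tlr2 lay outside all 4 intervals. In the annotation 223 exonic bases of the Myd88 transcript are shared with Acaa1a and 395 of the Irak4 transcript with Twf1, each on the opposite strand, and although the library kit was strand-specific, the strand setting of the counting is not given, so reads of these pairs may be mixed.

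The kinase, inhibitor and NF-kappaB subunits also showed no difference larger than the spread between hearts. Ikbkb (chr8:22659212-22706589, minus strand) was at 13.7, 11.99 and 13.9 CPM with AAV-Luc and at 13.4, 13.3, 13.2 and 13.4 CPM with AAV-CTRP9, and its within-group SD of 0.08 on the log2 scale was the smallest of the core genes. Nfkbia, the inhibitor that NF-kappaB itself induces (chr12:55489410-55492647, minus strand), was at 12.5, 14.6 and 12.3 CPM and at 14.3, 13.1, 12.4 and 13.4 CPM. Its mean was 13.1 ± 1.27 CPM (SD, n = 3) with AAV-Luc and 13.3 ± 0.80 CPM (SD, n = 4) with AAV-CTRP9. Nfkb1, the precursor of p50 (chr3:135584655-135691547, minus strand), was at 18.5, 20.2 and 21.2 CPM and at 17.4, 20.8, 21.8 and 20.9 CPM. Rela, the transactivating subunit p65 (chr19:5637483-5648130, plus strand), was at 29.7, 28.3 and 28.6 CPM with AAV-Luc and at 27.8, 30.5, 26.0 and 23.8 CPM with AAV-CTRP9. The AAV-CTRP9 hearts spread more widely for Rela and 3 of 4 were below all AAV-Luc hearts. The log2 fold changes were 0.01 (SE 0.09) for Ikbkb, 0.02 (SE 0.10) for Nfkbia, 0.02 (SE 0.10) for Nfkb1 and -0.10 (SE 0.09) for Rela, with limma adjusted p-values of 0.78 to 0.98. The 95% intervals of the 4 genes together ran from -0.31 to 0.24.

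**Figure D2:**
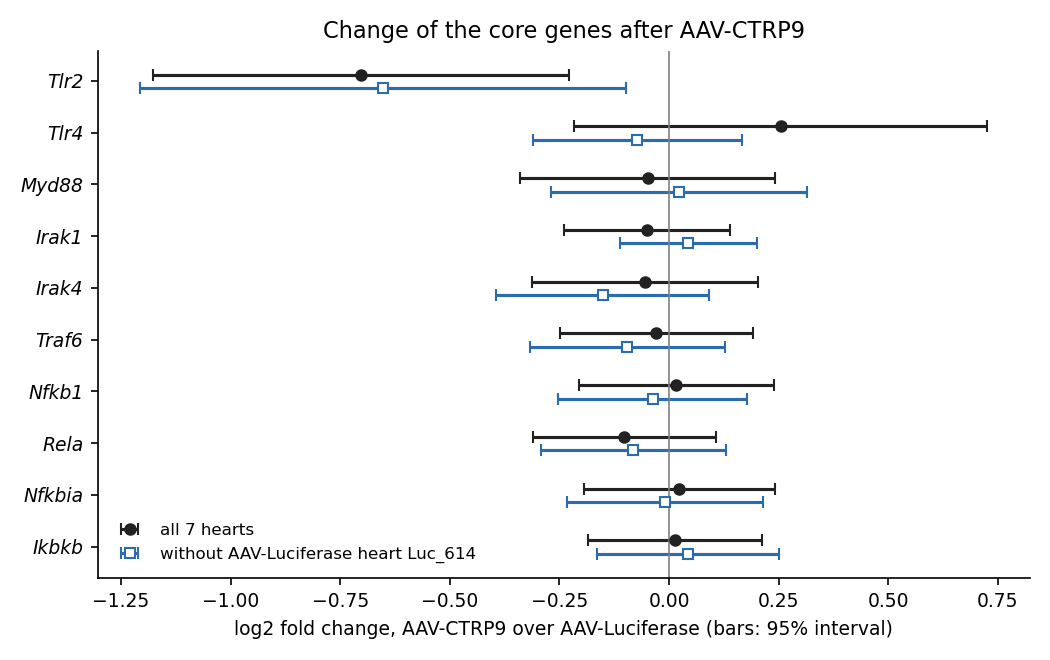
Log2 fold change of each core gene, AAV-CTRP9 over AAV-Luc, with its 95% interval, from all 7 hearts (black circles) and without AAV-Luc heart Luc_614 (blue squares). The interval of Tlr2 lies below 0 in both fits, the value of Tlr4 moves from 0.25 to -0.07, and the other 8 values stay between -0.15 and 0.04.

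Taking the 10 genes as a list, 0 passed an adjusted p of 0.05 by limma, and 0 did so by edgeR or DESeq2 on recovered reads. Over all genes 2 of 13219 passed by limma (0.0151%), 2 by edgeR and 61 by DESeq2. The overexpressed gene C1qtnf9 did not pass by limma either (log2 fold change 1.73, adjusted p = 0.11). At an unadjusted p under 0.05, 1 of 10 core genes was lower and 0 were higher, beside 4.36% and 4.3% of all genes. The groups did not overlap for 1 of 10 in the lower direction and for 0 in the higher direction, beside 4.54% and 4.49% of all genes. A single gene of 10 does not set the core genes apart from these shares. The median log2 fold change of the core genes was -0.04, against 0.03 over all genes.

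The wider pathway was read from a list of 60 further genes in 4 roles, of which 51 were measured. None passed an adjusted p of 0.05 by limma or edgeR, and 1, Bcl3, passed by DESeq2. Over all 13219 genes 2 passed by limma, 2 by edgeR and 61 by DESeq2. At an unadjusted p under 0.05 by limma, 10 of the 51 were lower and 2 were higher, beside 4.36% and 4.3% of all genes. EdgeR and DESeq2 gave the same counts. The list median was -0.06, with 30 negative and 21 positive fold changes, against 5688 negative and 7531 positive values over all genes. The lower count was 5 when AAV-Luc heart Luc_624 or AAV-CTRP9 heart CTRP9_611 or CTRP9_620 was left out. Without heart Luc_614 the unadjusted counts were 8 lower and 2 higher, and Bcl3, Nfkbiz and Sigirr passed the adjusted limma test. In that fit 150 of all 13219 genes passed it.

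**Figure D3:**
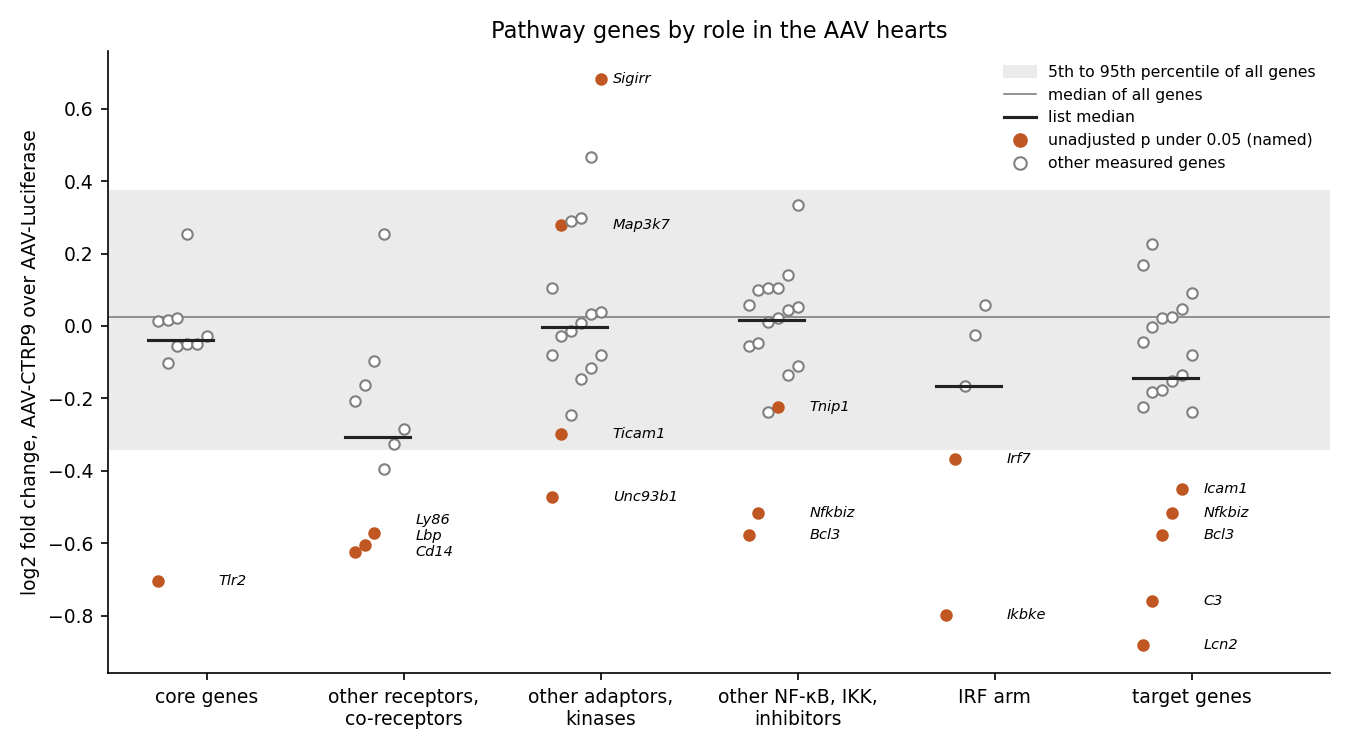
Log2 fold change, AAV-CTRP9 over AAV-Luc, of the core genes and of 5 lists of pathway genes, with each point 1 gene, black bars the list medians and the grey band the 5th to 95th percentile of all genes (-0.34 to 0.37). Genes named in orange had an unadjusted p under 0.05. The receptor and co-receptor list has the lowest median, -0.31.

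Among the other Toll-like receptors and co-receptors, 10 of 16 were measured. Of these 10, 9 had a negative fold change, beside 5688 of all 13219 genes. Cd14, which hands lipopolysaccharide to TLR4, was at 2.75, 2.39 and 4.21 CPM in the AAV-Luc hearts Luc_614, Luc_615 and Luc_624, and at 2.07, 2.41, 1.47 and 2.02 CPM in the AAV-CTRP9 hearts CTRP9_609, CTRP9_610, CTRP9_611 and CTRP9_620. The Cd14 groups overlapped by 1 heart (log2 fold change -0.62, SE 0.23, limma adjusted p = 0.53). Lbp, the lipopolysaccharide-binding protein, was at 5.39, 3.78 and 6.11 CPM and at 3.25, 3.08, 3.12 and 3.71 CPM, without overlap (-0.61, SE 0.17, limma adjusted p = 0.40). Ly86, the partner protein of the receptor CD180, had a log2 fold change of -0.57 (SE 0.24). Ly96, the subunit with which TLR4 binds lipopolysaccharide, was at 1.16 CPM in AAV-Luc and 1.04 CPM in AAV-CTRP9 on average. The endosomal receptors Tlr7, Tlr9 and Tlr13 were also near 1 CPM, at a depth that shows only large changes. Tlr3, another endosomal receptor, was at 6.67 and 5.72 CPM on average, with overlapping groups (-0.21, SE 0.15, limma adjusted p = 0.70). Without heart Luc_614 Tlr3 was at -0.35 (unadjusted p = 0.020 and adjusted p = 0.29 by limma). Cd36, a fatty acid transporter that is also a co-receptor of TLR2, was the exception with a positive value (0.25), which was -0.02 without heart Luc_614.

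Of 18 measured adaptors, kinases and ubiquitin enzymes, 2 were lower and 2 were higher at an unadjusted p under 0.05 by limma. Over all genes these shares were 4.36% and 4.3%. Unc93b1, which escorts the endosomal receptors, was at 15.4, 15.4 and 16.8 CPM with AAV-Luc and at 12.5, 13.7, 10.4 and 9.69 CPM with AAV-CTRP9 (log2 fold change -0.47, SE 0.13, limma adjusted p = 0.39). Ticam1, the adaptor TRIF of the MyD88-independent route, had a log2 fold change of -0.30 (SE 0.12), which was -0.18 without heart Luc_614 (unadjusted p = 0.12 by limma). Sigirr, a receptor that restrains Toll-like receptor and interleukin-1 signalling, was at 2.35, 1.46 and 1.44 CPM and at 2.91, 2.48, 2.84 and 2.72 CPM, higher in every AAV-CTRP9 heart (0.68, SE 0.20, limma adjusted p = 0.42). Heart Luc_614 was the AAV-Luc heart closest to the other group, and without it Sigirr had a log2 fold change of 0.91 and a limma adjusted p of 0.027. Map3k7, the kinase TAK1 downstream of TRAF6, had a log2 fold change of 0.28 (SE 0.11), which was 0.14 without heart Luc_614. The list median was 0.00.

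Of 18 measured NF-kappaB subunits, IκB kinase parts and inhibitors, 10 had positive and 8 had negative fold changes (7531 and 5688 over all genes). At an unadjusted p under 0.05 by limma, 3 were lower and 0 were higher (4.36% and 4.3% of all genes), and none passed the adjusted test. Bcl3, a nuclear IκB protein that binds p50 and p52, had the smallest p of the pathway genes. It was at 7.80, 8.07 and 8.81 CPM with AAV-Luc and at 5.58, 5.56, 5.72 and 5.16 CPM with AAV-CTRP9, and no heart of either group came close to the other group. Its log2 fold change was -0.58 (SE 0.10, unadjusted p = 0.00019, limma adjusted p = 0.16), and without heart Luc_614 it was -0.62 with a limma adjusted p of 0.018. Nfkbiz, another nuclear IκB protein, was at 3.18, 4.71 and 6.07 CPM and at 3.08, 3.29, 3.44 and 2.79 CPM (-0.52, SE 0.20), and its limma adjusted p moved from 0.54 to 0.031 without heart Luc_614. Tnip1, which limits NF-kappaB signalling together with the enzyme A20, had a log2 fold change of -0.22 (SE 0.09). The remaining subunits Nfkb2, Rel and Relb and the kinase subunits Chuk and Ikbkg had values between -0.13 and 0.10. In the interferon regulatory factor arm, 4 of 5 genes had a negative fold change (5688 of 13219 over all genes) and none passed the adjusted limma test. At an unadjusted p under 0.05 were Ikbke, the kinase IKKε, with -0.80 (SE 0.24, limma adjusted p = 0.43), and Irf7, which drives type I interferon genes, with -0.37 (SE 0.15, limma adjusted p = 0.54). Without heart Luc_614, Tnip1 and Irf7 were at -0.14 and -0.22, with unadjusted p-values of 0.14 and 0.11 by limma.

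**Figure D4:**
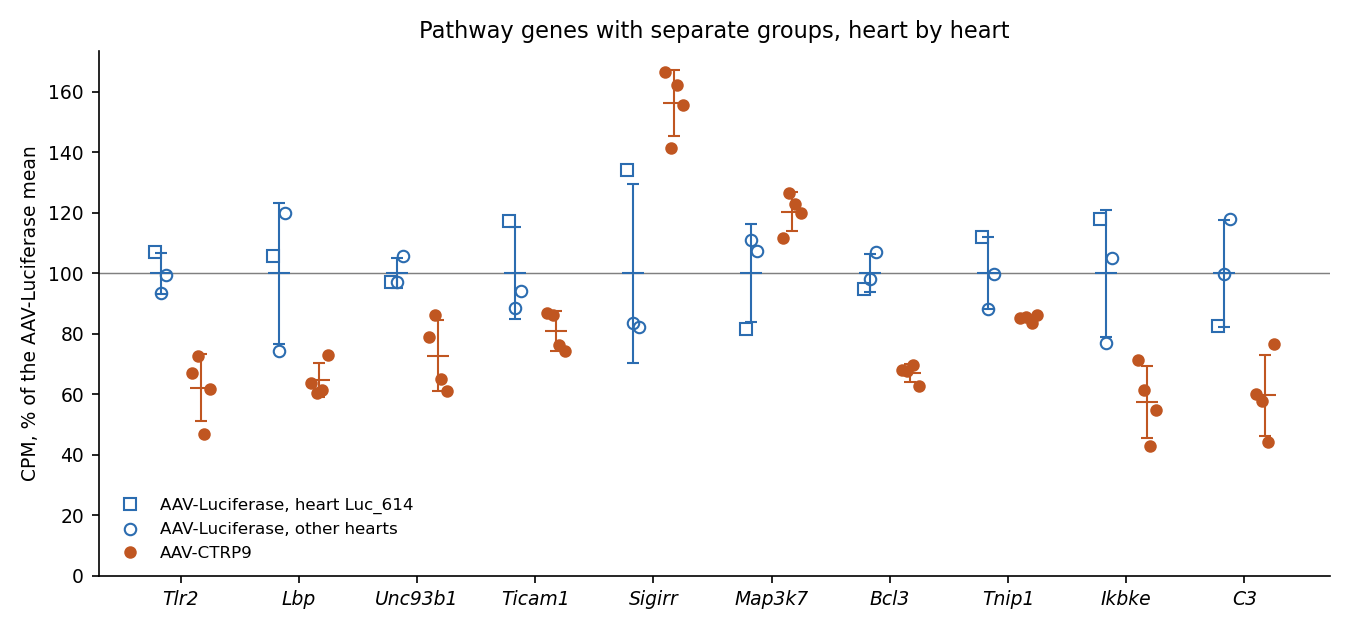
Level of Tlr2 and of 9 other pathway or target genes at an unadjusted p under 0.05 whose groups did not overlap, heart by heart, as a percentage of the AAV-Luc mean. Open blue symbols are AAV-Luc hearts (the square is heart Luc_614), orange points AAV-CTRP9 hearts, and bars show mean and SD. Sigirr and Map3k7 are higher and the other 8 genes lower in every AAV-CTRP9 heart.

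Of 33 NF-kappaB target genes, 20 were measured, and the cytokine genes Il6, Il1b and Tnf were among the 13 that were not. The target list shares 6 genes with the wider pathway list, Bcl3 and Nfkbiz among them, so the counts of the 2 lists are not separate. None passed an adjusted p of 0.05 by limma, while Bcl3 and C3 did so by DESeq2 (61 of all 13219 genes). At an unadjusted p under 0.05 by limma, 5 were lower and 0 higher (4.36% and 4.3% of all genes). The median log2 fold change was -0.14, with 14 negative and 6 positive values, against 5688 negative and 7531 positive values over all genes. Besides Bcl3 and Nfkbiz these were C3, Lcn2 and Icam1. C3, the central complement component, was at 105, 127 and 150 CPM in the AAV-Luc and at 76.4, 73.6, 56.3 and 97.6 CPM in the AAV-CTRP9 hearts (-0.76, SE 0.17, limma adjusted p = 0.26, and 0.007 without heart Luc_614). Lcn2, an iron-chelating acute phase protein, had a log2 fold change of -0.88 (SE 0.34) and Icam1, the endothelial adhesion molecule for leukocytes, one of -0.45 (SE 0.14), with overlapping groups for both. In contrast Sod2, Csf1, Relb and Gadd45b had values between 0.02 and 0.09, and Nos2 and Ier3 had 0.23 and 0.17. Without heart Luc_614, 2 target genes were also higher at an unadjusted p under 0.05, namely Nos2, the inducible nitric oxide synthase, with 0.40 and Sod2, the mitochondrial superoxide dismutase, with 0.20.

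The table on CTRP9 deletion lists only transcripts that had an unadjusted p under 0.05 in the study's own test of these 7 hearts. A new fit to them is a description and no independent test, and the 8 core genes outside the table have no value in this comparison. Of the 2 listed core genes 1 was higher and 1 was lower in KO hearts.

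Tlr4 was higher in the KO hearts. Its read counts divided by library size factors (normalised read counts) were 132, 154 and 198 in WT1, WT3 and WT4, and 199, 224, 234 and 258 in KO1 to KO4. The groups did not overlap, but KO1 and WT4 were only 0.46 apart. Among the listed genes 28% were higher and 38.9% lower in KO without overlap. The raw counts were 113 to 192 reads in WT and 194 to 280 in KO. The means were 161 ± 33.8 (SD, n = 3) and 229 ± 24.7 (SD, n = 4), with mean RPKM values of 1.19 and 1.74. The log2 fold change was 0.50 (SE 0.15, 95% interval 0.18 to 0.83), or 1.42-fold. It was 0.39 without WT1, the library with the most Xist reads, and between 0.39 and 0.68 when any single library was left out. Of the markers of monocytes and macrophages, Fcgr1 and Cx3cr1 of 12 were listed, both higher in KO. Fcgr1 had 5, 12 and 13 reads in WT and 14, 24, 24 and 34 in KO, and Cx3cr1 had 5, 34 and 26 reads in WT and 35, 53, 47 and 67 in KO, far below its level in the AAV table. WT1 held the fewest reads of Fcgr1, Cx3cr1 and Tlr4 alike, and the part of these cells in the level of Tlr4 was not tested. Markers of other cell types were also listed. Lower in KO were the smooth muscle actin Acta2 (log2 fold change -1.20), the collagen gene Col1a1 (-0.34) and the cardiomyocyte genes Actc1 (-0.31), Myh6 (-0.20) and Nppa (-0.71), and higher was the cardiomyocyte gene Pln (0.15). No endothelial, pan-leukocyte, neutrophil, lymphocyte or erythroid marker was listed.

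Rela was slightly lower in the KO hearts. Its normalised read counts were 718, 815 and 804 in WT and 720, 691, 684 and 653 in KO1 to KO4, so that WT1 and KO1 overlapped while the other hearts were separate. The means were 779 ± 52.8 (SD, n = 3) and 687 ± 27.5 (SD, n = 4), a log2 fold change of -0.18 (SE 0.07), or 88.1% of the WT level. A second listed Rela transcript, which shares most of its reads with the first, had 702, 775 and 758 in WT and 688, 644, 650 and 618 in KO, without overlap. In a refit by edgeR 93.5% of the listed genes passed an adjusted p of 0.05, Tlr4 and Rela among them (0.024 and 0.036), on the same hearts on which the rows had been selected. Tlr4 lost this threshold without KO4 (log2 fold change 0.44, edgeR adjusted p = 0.054), and Rela lost it without WT3, WT4, KO2, KO3 or KO4 (-0.19 to -0.15). For Rela the value depended on the scaling, and it was -0.07 with the size factors of DESeq2 from the listed genes (adjusted p = 0.46) and with their TMM factors (edgeR adjusted p = 0.42), and -0.14 with library totals. For Tlr4 these 3 scalings gave 0.61, 0.62 and 0.55.

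**Figure D5:**
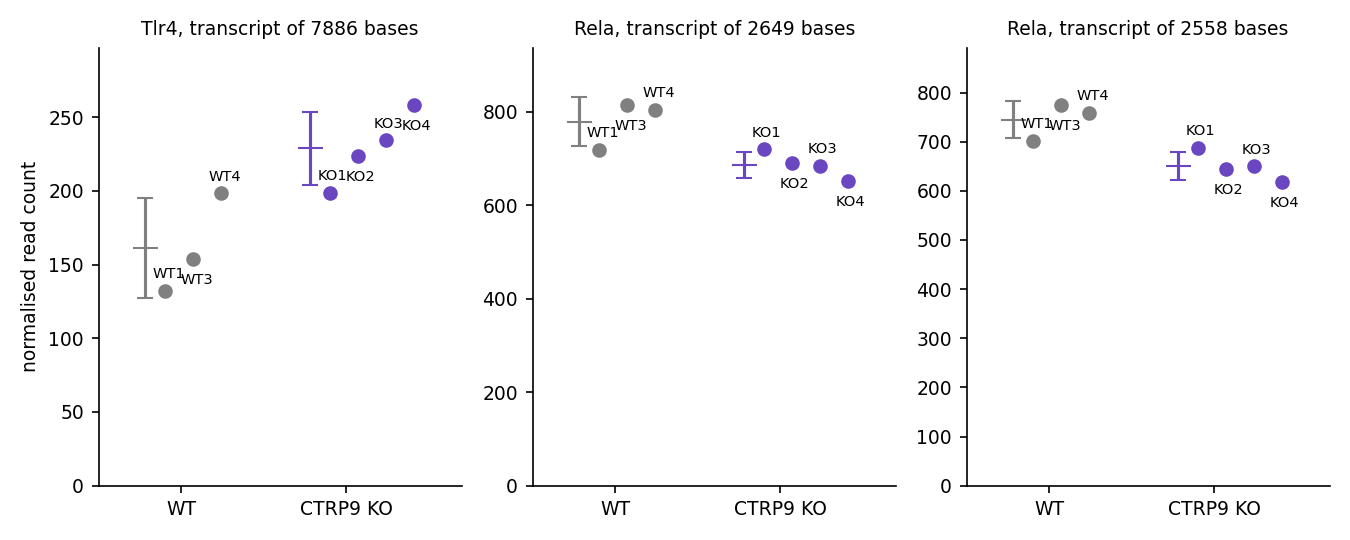
Normalised read counts of Tlr4 and of the 2 listed Rela transcripts in each WT (grey) and CTRP9 KO (purple) library, with mean and SD at the left of the points and axes from 0. The lowest KO library for Tlr4 is level with WT4, and KO1 is level with WT1 for the first Rela transcript.

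Of the wider pathway list, 2 of 60 genes were listed in the deletion table. Cd36 was higher, with 16040 to 18422 normalised reads in WT and 18189 to 19894 in KO (log2 fold change 0.17, SE 0.07), with overlapping groups. A transcript of Irf3, whose gene encodes a transcription factor downstream of TRIF, was lower, with 234, 252 and 266 in WT and 215, 206, 198 and 187 in KO (-0.32, SE 0.10). RefSeq classes this transcript as non-coding, so these values are not those of a coding Irf3 transcript. Of the 33 target genes, Ptgs2 and a transcript of Cflar were listed. Ptgs2, the inducible cyclooxygenase, had 2, 26 and 19 reads in WT and 4, 6, 3 and 8 in KO, so that WT1 lay below all KO libraries although the fitted value was -1.62 (SE 0.61). Cflar had 1, 4 and 1 reads in WT and 14, 9, 5 and 6 in KO. Neither Bcl3, Lbp, Cd14, C3 nor Lcn2 was listed.

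Set side by side, the 2 core genes measured in both experiments gave the following values. Tlr4 had a log2 fold change of 0.50 in KO over WT and of 0.25 in AAV-CTRP9 over AAV-Luc, the latter -0.07 without heart Luc_614. Rela had -0.18 in KO over WT and -0.10 in AAV-CTRP9 over AAV-Luc. The experiments share no samples and were tabulated separately with different transcripts, and the difference between them was not tested. Tlr2 was not listed in the deletion table, so the gene with the largest difference after AAV-CTRP9 has no counterpart there.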

How the data were processed

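RNA of 14 heart samples was sequenced as single-end reads of 50 bases from a strand-specific library kit. The authors trimmed the reads with FastqCleaner and aligned them to mm10 with Bowtie2. For the counting software, its strand setting and multiply matching reads, nothing is given in the sources used here. The deposited AAV table holds log2 CPM values per Ensembl transcript (counts scaled to library size, with a prior count of 1), and reads were counted to every overlapping transcript. From these values whole reads were recovered for 100% of entries (relative tolerance 1e-06). The deposited deletion table holds raw read counts per RefSeq transcript. Its mean normalised signal (a DESeq2 column of the authors) gave back their size factors, and the deposited sum of RPKM values gave back the library totals. The counts, lengths and totals were used to compute RPKM per library. Fold changes and p-values of the authors were not used, nor were 14 columns of scaled values per library. The columns of the deletion table name WT or KO and a number that is not tied to a given sample label.

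The highest-mean transcript stood for each symbol. AAV groups were compared with limma 3.58.1 (R 4.3.3) with an intensity trend over 13219 genes, Benjamini-Hochberg adjusted, and each core gene also with a 2-sided exact permutation test over 35 splits. Listed deletion genes were refitted with edgeR 4.0.16 (quasi-likelihood). Alternatives were edgeR and DESeq2 1.42.0 on recovered reads, other scalings, priors and filters, and leaving out each library. The scripts were tested on simulated data. Members and gene lists were chosen with earlier results of these data known. All core genes are named, and of each other list the genes at an unadjusted p under 0.05, or listed in the deletion table, at most the 6 smallest p per direction. Other genes named beside them were chosen after their values were seen. Gene positions come from GENCODE M21 and promoters from RefSeq, both on GRCm38.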

Additional observations from a re-analysis of the deposited data

How the results depend on the processing

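The direction of Tlr2 was the same under all 16 alternatives, with log2 fold changes from -0.79 to -0.57, unadjusted p-values from 0.0017 to 0.024 and adjusted p-values from 0.29 to 0.84. Rela stayed negative after AAV-CTRP9, from -0.16 to -0.04. The other 8 core genes turned sign under at least 1 alternative, Tlr4 from 0.25 and the others from values near 0. With library totals only, Nfkb1 was at -0.031, Nfkbia at -0.024 and Ikbkb at -0.034. With GC content and length trends removed and heart Luc_614 left out, chosen after seeing the data, Tlr4 was at -0.087, Irak1 at 0.031, Nfkb1 at -0.052 and Nfkbia at -0.063. When single hearts were left out, the ranges were -0.073 to 0.45 for Tlr4, -0.15 to 0.023 for Myd88, -0.12 to 0.044 for Irak1, -0.15 to 0.012 for Irak4, -0.095 to 0.021 for Traf6, -0.038 to 0.088 for Nfkb1, -0.023 to 0.10 for Nfkbia and -0.055 to 0.052 for Ikbkb. No core gene passed an adjusted p of 0.05 under any alternative.

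Of all genes in the AAV comparison, 2 passed the adjusted threshold, beside 61 with DESeq2, 0 without the trend, 1 with library totals, 0 with summed transcripts and 10 after removal of GC and length trends. Leaving out single hearts gave 0 to 150, the highest without heart Luc_614, and 174 with GC and length trends also removed. Of the wider pathway list, 2 genes were higher at an unadjusted p under 0.05, beside 1 with library totals and 1 with GC and length trends removed without heart Luc_614. Leaving out single hearts gave 1 to 4 higher and 5 to 9 lower, with 5 lower without AAV-Luc heart Luc_624 or AAV-CTRP9 heart CTRP9_611 or CTRP9_620. Higher target genes numbered 2 with GC and length trends removed without heart Luc_614, and 0 to 2 when single hearts were left out.

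For the deletion, 1150 listed genes passed in the refit, beside 632 with DESeq2 and 652 with TMM factors, and 338 to 933 when single libraries were left out, the lowest without KO4 and 532 to 716 without WT1, WT3, KO2 or KO3. Rela was at -0.071 with DESeq2 (adjusted p = 0.46), -0.14 with library totals (edgeR adjusted p = 0.10) and -0.068 with TMM factors, and ranged from -0.24 to -0.15 when single libraries were left out. It then lost the threshold without WT3, WT4, KO2, KO3 or KO4, with edgeR adjusted p-values of 0.065 to 0.12. Tlr4 ranged from 0.39 to 0.68 and lost the threshold only without KO4 (edgeR adjusted p = 0.054). The AAV labels share no number between groups. The deletion columns share the numbers 1, 3 and 4, which no label ties to a litter or batch. The deviations of same-numbered libraries from their group means had correlations across genes of 0.088, -0.17 and -0.40. Those of libraries with different numbers ranged from -0.20 to 0.37. With so few libraries, and genes selected for a group difference, these values cannot show whether the numbers pair the libraries. With the column number as a replicate block, added after seeing the data, 490 listed genes passed, Tlr4 was at 0.52 (edgeR adjusted p = 0.041) and Rela at -0.19 (edgeR adjusted p = 0.085). The cause of these shifts was not tested. With 25 to 62 reads of Tlr2 per library, counting error limits its precision.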

Other observations

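The balance of the receptors differed between hearts. Per kilobase of transcript, the Tlr2 level was 26.9%, 11.4% and 13.1% of the Tlr4 level in the AAV-Luc hearts Luc_614, Luc_615 and Luc_624, and 9.75%, 10.1%, 5.67% and 8.13% in the AAV-CTRP9 hearts CTRP9_609, CTRP9_610, CTRP9_611 and CTRP9_620. The value of heart Luc_614 rests on its low Tlr4 level. All these percentages use the Tlr4 transcript of 1866 bases. The longer Tlr4 transcript, of 4077 bases, had a lower level in every heart, so the percentages would be higher with it. They were not computed for that transcript. However, heart Luc_615 had 1.82 CPM of Tlr2 beside 4.18 CPM of the longer Tlr4 transcript. That ratio is lower than in CTRP9_609 (1.31 beside 2.66 CPM) and in CTRP9_610 (1.42 beside 2.90 CPM). The groups were therefore separate for the shorter transcript only, and the size of the percentages also depends on the transcript used.

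The transcripts of a core gene did not always have the same difference. Irak1 had 7 transcripts in the AAV table. The 4 with the highest level, whose reads are nearly the same, had differences of -0.050 to -0.045 on the log2 scale, and the other 3 had differences of 0.028. The lower Irak4 transcript, at 2.24 CPM in AAV-Luc and 1.79 CPM in AAV-CTRP9, had a difference of -0.34 against -0.05 for the main one. No test was run on these differences between transcripts.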
